A study of Homo sapiens with 12 samples.

Results

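The genes described here are VTCN1 and 8 other genes for immune checkpoint ligands, CD274, PDCD1LG2, CD276, HHLA2, CD47, PVR, NECTIN2 and LGALS9, which are 9 of the 62754 genes in a table of estimated read counts from PC9 cells. PC9 is a human lung adenocarcinoma line driven by a mutated EGFR. Erlotinib is a drug that blocks the kinase activity of EGFR. The members were found by matching the gene identifiers of the table to these symbols. VTCN1 was selected on its measured counts, for its rise under erlotinib in these same libraries, so its values under the drug are given as a description, without a test. The 12 libraries of polyadenylated RNA fell into 4 groups of 3. Cells of the TDP1 WT genotype were untreated (untreated WT) or held in erlotinib at 1 µM for 7 days, called drug-tolerant cells (DTC), or for 28 days, called drug-tolerant expanded cells (DTEC). Untreated cells of 1 TDP1 knockout line, labelled KO2, formed the last group (KO), and no knockout cells were given erlotinib. TDP1 removes trapped topoisomerase I from DNA ends. Per the labels, replicate cultures were split from a common flask of a subclonal PC9 line and then grown independently, so p-values measure the spread between such cultures. The labels give the untreated cultures no sampling day, so drug and time in culture cannot be told apart. With 1 knockout line, loss of TDP1 cannot be told apart from other differences between that line and the WT cells.

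Checkpoint ligands are surface or secreted proteins that restrain immune cells by engaging inhibitory receptors. The B7 family includes PD-L1 (gene CD274) and PD-L2 (gene PDCD1LG2), which bind PD-1 on T cells, and B7-H3 (CD276), B7-H4 (VTCN1) and B7-H7 (HHLA2), which also modulate T cells. CD47 signals to SIRPA on macrophages and holds back phagocytosis, PVR and NECTIN2 bind TIGIT and the activating receptor CD226, and galectin-9 (LGALS9) binds TIM-3. In lung cancer, PD-L1 is the best known of these as a drug target and its gene is a classic target of interferon signalling. The values below are transcript levels in cultures of 1 tumour line and say nothing of protein or of binding to immune cells. In RNA from a whole culture, fewer cells with a transcript and less of it per cell cannot be told apart.

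The bases just upstream of VTCN1 and CD274 are shown because the levels of these B7 genes moved in opposite directions between untreated WT and DTEC. Both were taken from RefSeq promoter windows on GRCh38.p14, cut to the part upstream of every annotated exon of the gene, and are printed 5′ to 3′ on the strand of the gene. VTCN1 is at chr1:117210961-117211177 on the minus strand and CD274 is at chr9:5450292-5450502 on the plus strand. Capitals mark matches to TTCNNNGAA (the GAS motif), the ISRE motif of interferon regulatory factors (GAAA, a pair of any bases, GAAA) or an NF-kB motif (GGGA, any base, TTTCC), searched on both strands.
VTCN1: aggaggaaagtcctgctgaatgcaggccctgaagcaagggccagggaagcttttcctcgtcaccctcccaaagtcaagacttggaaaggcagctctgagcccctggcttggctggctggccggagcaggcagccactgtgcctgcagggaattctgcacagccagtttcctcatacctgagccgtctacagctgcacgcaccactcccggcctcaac
CD274: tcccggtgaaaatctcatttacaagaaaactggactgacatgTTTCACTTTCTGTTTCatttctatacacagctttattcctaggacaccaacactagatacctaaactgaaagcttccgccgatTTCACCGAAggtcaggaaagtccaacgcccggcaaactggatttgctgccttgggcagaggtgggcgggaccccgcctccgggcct
The CD274 stretch held 2 overlapping ISRE matches on the opposite strand, TTTCACTTTC and TTTCTGTTTC, beginning 208 and 202 bases before the RefSeq start site, and the GAS match TTCACCGAA, beginning 125 bases before it. The VTCN1 stretch held none of the 3 motifs. Among 35116 RefSeq promoter windows, 7.66% held the GAS motif, 3.57% the ISRE motif and 0.558% the NF-kB motif. Windows were found for 8 of the 9 members, and the other matches were 1 ISRE match each for LGALS9 and HHLA2. That of LGALS9, TTTCTATTTC, begins 9 bases before the RefSeq start, which lies inside the GENCODE 29 span of the gene given below, and that of HHLA2, TTTCAGTTTC, lies after the start site. A match describes letters only and is not a shown binding site.

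The libraries held 25572691 to 38373679 estimated counts, so 3 counts, taken as the floor for detection, corresponded to 0.0782 to 0.117 CPM, the count scaled per library total. TDP1 itself was at 26.3 ± 1.60 CPM (here and below on TMM-scaled totals, SD, n = 3) in untreated WT and 10.8 ± 0.647 in KO, a log2 difference of -1.29 (edgeR quasi-likelihood adjusted p 1.3e-05). The table gives gene totals, so which part of TDP1 the remaining reads come from was not tested. Of 11 epithelial markers, 10 were above the floor in untreated WT, DTEC and KO and 11 in DTC, with NKX2-1 at the floor outside DTC. CD3D, MS4A1 and NKG7, which define T cells, B cells and NK cells, had 0 counts in all 12 libraries, and PTPRC, the pan-leukocyte marker, reached at most 0.147 CPM. Of 12 leukocyte markers, 5 were above the floor in untreated WT, 6 in KO and 7 in each of DTC and DTEC, and their summed level was 28.4 to 35.6 CPM in untreated WT and 28.3 to 31.9 in KO, beside 57.0 to 76.9 in DTC and 37.7 to 44.8 in DTEC. CD68, ITGAM and CSF1R made up much of that sum, with means of 46.4, 10.4 and 9.57 CPM in DTC against 29.8, 1.3 and 0.384 in untreated WT. The summed fibroblast markers were also higher in DTC, at 55.0 to 57.8 CPM against 7.99 to 8.91 in untreated WT. Of these 7 markers, 4 were above the floor in DTC and 2 in untreated WT. The summed endothelial markers were at 58.5 to 61.4 CPM in untreated WT and 122 to 142 in DTEC, and the epithelial sum was at 11052 to 11661 CPM in untreated WT and 6642 to 7705 in DTC. The part of these marker levels in the results below was not tested. The log2 differences below are relative to TMM scaling. When total counts alone set the scale, the median gene shifted by 0.35 in DTC, by 0.17 in DTEC and by -0.19 between DTEC and DTC. The percentage of calls in the higher direction then went from 50.5% to 68.4%, from 49.7% to 63.7% and from 51.9% to 37.4%.

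VTCN1 (ENSG00000134258, chr1:117143587-117210960, minus strand, GRCh38) was among the least abundant of the 9 ligands in untreated cells and among the more abundant under erlotinib, per length of transcript. In untreated WT it was at 0.747, 0.270 and 0.519 CPM in replicates 1 to 3, from 25, 8 and 18 counts. In DTC it was at 78.9, 63.9 and 70.3 CPM, from 2335, 2170 and 2397 counts. In DTEC it was at 74.8, 42.2 and 32.4 CPM, from 2456, 1104 and 1178 counts. Every treated library was therefore far above every untreated one, and DTEC replicate 1 lay within the DTC range while replicates 2 and 3 lay below it. The fitted log2 difference from untreated WT was 7.08 in DTC (136-fold, SE 0.373) and 6.57 in DTEC (95.1-fold, SE 0.371). Over all alternative settings and left-out libraries these values ran from 6.83 to 7.48 and from 6.17 to 6.95. DTEC minus DTC was -0.51 (SE 0.251), with overlapping groups. The spread within DTEC was wide, at 49.8 ± 22.2 CPM (SD, n = 3) against 71.0 ± 7.55 in DTC. Over all tested genes DTEC replicates 1, 2 and 3 lay 47.2%, 44.4% and 42.0% of the way from the untreated WT mean to the DTC mean, the same order as their VTCN1 levels, and the part of this in the spread was not tested.

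In untreated KO cells VTCN1 was at 1.44, 2.01 and 1.80 CPM, from 41, 62 and 65 counts, above all 3 untreated WT libraries. The mean was 1.75 ± 0.287 CPM (SD, n = 3) against 0.512 ± 0.239, a log2 difference of 1.75 (SE 0.434, 3.36-fold), which is small beside that under erlotinib. Over the alternatives that difference ran from 1.49 to 2.13. It is given without a test, because it uses the untreated WT libraries on which VTCN1 was chosen.

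**Figure D1:**
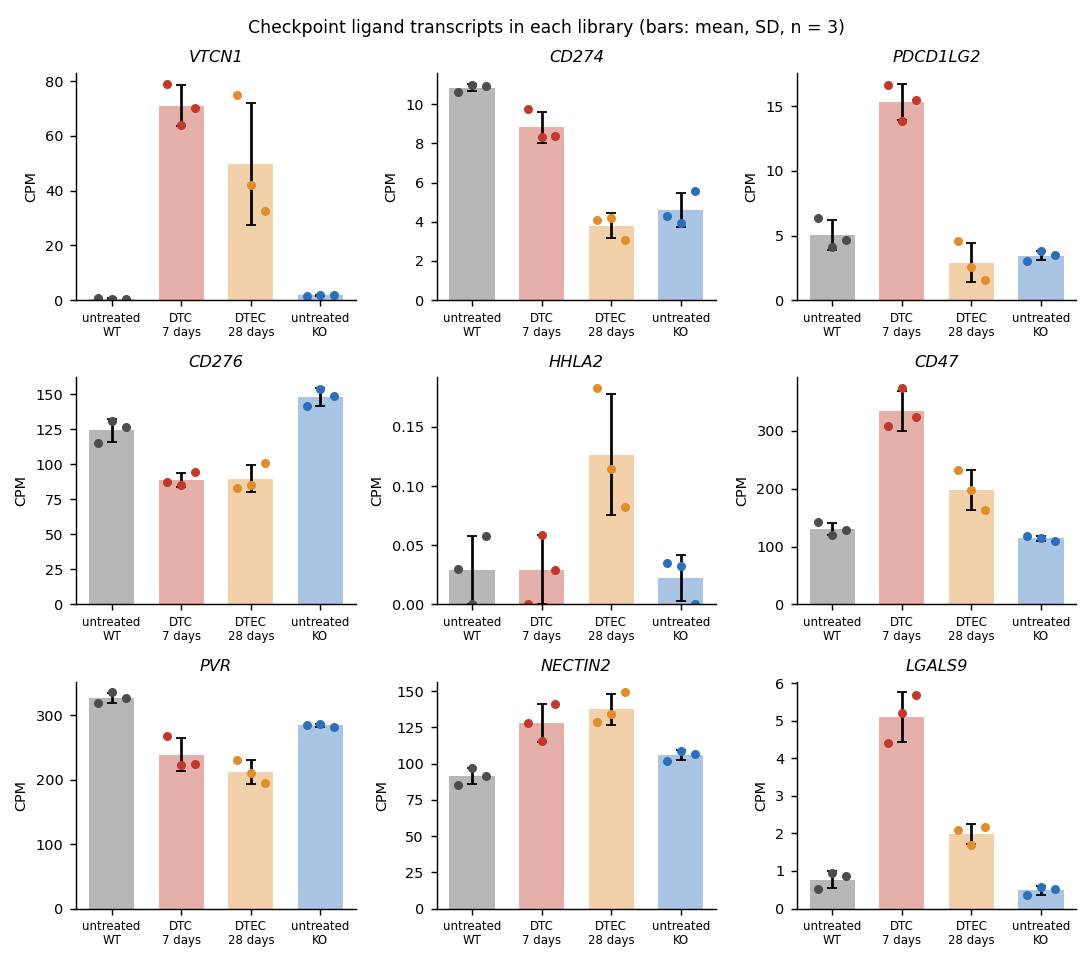
Level of each of the 9 ligand genes in CPM by group, each panel on its own linear axis from 0, with bars for the group mean, error bars for the SD (n = 3) and 1 point per library. VTCN1 has a mean of 0.512 CPM without drug, 71.0 in DTC and 49.8 in DTEC, while CD274 is lowest in DTEC and KO.

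CD274 and PDCD1LG2, the ligand genes of PD-1, lie next to each other on chromosome 9 but did not move together in DTC. CD274 (ENSG00000120217, chr9:5450503-5470566, plus strand) was at 10.6, 10.96 and 10.9 CPM in untreated WT and at 9.73, 8.30 and 8.39 in DTC. All 3 DTC libraries were below all 3 untreated WT libraries, yet the log2 difference of -0.30 (SE 0.155) did not pass the test (adjusted p 0.101), and it was 0.05 when libraries were scaled by total counts alone. In DTEC, CD274 was at 4.11, 4.20 and 3.08 CPM, 35.0% of the untreated WT mean. The fall was -1.52 on the log2 scale (SE 0.163, adjusted p 3.62e-06), and DTEC was also below DTC (-1.22, SE 0.163, adjusted p 2.48e-05). KO held 4.32, 3.92 and 5.58 CPM of CD274, 42.5% of untreated WT (-1.23, SE 0.161, adjusted p 0.000578). That fall was called in every alternative tried, with log2 differences of -1.37 to -1.12 and adjusted p of 6.42e-10 to 0.00639. CD274 was therefore low in DTEC and in the knockout cells, which had seen no drug. The KO and DTEC comparisons share the untreated WT libraries.

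PDCD1LG2 (ENSG00000197646, chr9:5510570-5571254, plus strand) was at 6.36, 4.15 and 4.64 CPM in untreated WT and rose to 16.6, 13.9 and 15.5 in DTC, 304% of the untreated mean (1.60, SE 0.275, adjusted p 0.000157). The DTEC libraries held 4.57, 2.60 and 1.57 CPM. All DTEC libraries were far below all DTC libraries (-2.40, SE 0.288, adjusted p 1.14e-05), while DTEC replicate 1 lay inside the untreated WT range. The difference between DTEC and untreated WT was -0.80 (SE 0.289, adjusted p 0.0325). That call was lost with total counts alone (0.0796), with upper-quartile factors (0.0601), with the compared libraries alone (0.0881), and without untreated WT replicate 1 (-0.59, 0.135), DTEC replicate 2 (0.0900) or DTEC replicate 3 (-0.49, 0.104). Without DTEC replicate 1 it was -1.28, and the alternatives gave adjusted p of 0.000349 to 0.135. KO held 3.05, 3.82 and 3.48 CPM (-0.55, SE 0.286, adjusted p 0.364). The gap of 40003 bp between CD274 and PDCD1LG2 contains 0 genes of GENCODE 29.

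CD276 (ENSG00000103855, chr15:73683966-73714518, plus strand), the most abundant of the B7 members in untreated cells, was at 115, 131 and 126 CPM in untreated WT. It was at 87.2, 85.1 and 94.6 CPM in DTC and at 82.8, 85.5 and 101 in DTEC, below every untreated WT library in both groups. The DTC difference was -0.48 (SE 0.0994, adjusted p 0.000643) but was not called with total counts alone (-0.13, adjusted p 0.277) or upper-quartile factors (-0.19, 0.0992). The DTEC difference was -0.47 (SE 0.0994, adjusted p 0.00125), and -0.30 with total counts alone. DTEC and DTC differed by 0.01 with an interval of -0.18 to 0.21 (95%, 1.96 SE), and that sign changed with the scaling. CD276 was at 142, 154 and 149 CPM in KO, above every untreated WT library, and the difference of 0.25 (SE 0.0990) had an adjusted p of 0.197, or 0.00956 when only the compared libraries were fitted. HHLA2 (ENSG00000114455, chr3:108296490-108378285, plus strand) was at or near the floor everywhere. It had 1, 0 and 2 counts in untreated WT, 0, 2.07 and 1 in DTC, 6, 2.99 and 2.99 in DTEC and 1, 1 and 0 in KO, and was not tested.

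CD47 (ENSG00000196776, chr3:108043094-108091862, minus strand) rose strongly from a high starting level. It was at 142, 121 and 129 CPM in untreated WT and at 308, 374 and 323 in DTC, 257% of the untreated mean (1.36, SE 0.127, adjusted p 3.37e-07). The DTEC libraries held 233, 197 and 163 CPM, still above every untreated library (0.60, SE 0.126, adjusted p 0.0011) and below every DTC library (-0.76, SE 0.126, adjusted p 0.000154). KO held 118, 114 and 110 CPM, below every untreated WT library, a log2 difference of -0.19 that did not pass the test (adjusted p 0.486). SIRPA, the receptor of CD47, is also transcribed in these cells and went the other way, from 66.8 CPM in untreated WT to 24.7 in DTC (-1.43, adjusted p 8e-08) and 37.5 in DTEC (-0.83, adjusted p 3.24e-05).

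PVR and NECTIN2, which bind the same receptors, moved in opposite directions. PVR (ENSG00000073008, chr19:44643798-44663583, plus strand) was at 319, 336 and 327 CPM in untreated WT, at 269, 224 and 225 in DTC and at 231, 210 and 195 in DTEC. Both treated groups lay below every untreated library. The DTEC difference was -0.63 (SE 0.0988, adjusted p 0.000113). The DTC difference was -0.45 (SE 0.0986, adjusted p 0.000934) and was lost with total counts alone (-0.10, adjusted p 0.376) and with upper-quartile factors (-0.17, 0.116). DTEC minus DTC was -0.17 (adjusted p 0.155), and was called with those same scalings (0.00665 and 0.00564). NECTIN2 (ENSG00000130202, chr19:44846175-44889228, plus strand) was at 85.5, 96.8 and 91.7 CPM in untreated WT, 128, 115 and 141 in DTC and 129, 134 and 149 in DTEC. It rose by 0.49 in DTC (SE 0.0999, adjusted p 0.00058), or 0.84 with total counts alone, and by 0.59 in DTEC (SE 0.10, adjusted p 0.000211). In KO, PVR was at 286, 286 and 282 CPM (-0.20, adjusted p 0.326) and NECTIN2 at 102, 109 and 107 (0.21, adjusted p 0.304). Each was called when only the compared libraries were fitted (0.0249 and 0.0203). The exons of PVR overlap those of CEACAM19 on the same strand by 121 bp, and 2 of its 12 deposited values were whole numbers, as was 1 of 12 for CD276, with departures from a whole number of at most 0.00012 of the value in both genes.

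LGALS9 (ENSG00000168961, chr17:27629798-27649560, plus strand) was low in untreated WT, at 0.508, 0.944 and 0.865 CPM, and rose to 4.39, 5.21 and 5.69 in DTC (2.72, SE 0.262, adjusted p 4.48e-07). The DTEC libraries held 2.10, 1.68 and 2.17 CPM, between the other groups without overlap. DTEC was above untreated WT (1.37, SE 0.265, adjusted p 0.000617) and below DTC (-1.36, SE 0.240, adjusted p 0.00028). KO held 0.351, 0.583 and 0.525 CPM (-0.65, adjusted p 0.289). Of the 101-base words of LGALS9, 5.62% also occur in related or overlapping genes, most of them in AC015688.4, whose exons overlap its own on the same strand, and 11 of its 12 deposited values were whole numbers. LGALS9B went the other way, from 2.36 CPM in untreated WT to 0.221 in DTC (-3.37, adjusted p 6.08e-06) and 3.51 in DTEC, and 43.4% of its words are shared, nearly all with LGALS9C, so the division of reads between LGALS9B and LGALS9C is uncertain.

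Counted by comparison, the members read as follows, beginning with 7 days of drug. In DTC, 6 of the 7 tested members other than VTCN1 were called, 4 higher (PDCD1LG2, CD47, NECTIN2, LGALS9) and 2 lower (CD276, PVR). Over all 17115 tested genes 67.3% were called, 34.0% higher and 33.3% lower, so calls were common among genes of any kind. After 28 days, in DTEC, 7 of 7 were called against a background of 52.3%, with 3 higher (CD47, NECTIN2, LGALS9; background 26.0%) and 4 lower (CD274, PDCD1LG2, CD276, PVR; background 26.3%). PDCD1LG2 was thus called higher at 7 days and lower at 28 days, the second call being lost in 6 of 15 alternatives. In DTEC against DTC, 4 of 7 members were called and all 4 were lower (CD274, PDCD1LG2, CD47, LGALS9), where 55.4% of genes were called and 26.6% were lower. The 3 not called were CD276, PVR and NECTIN2. In KO, 1 of the 7 tested members other than VTCN1 was called, CD274, which was lower, against a background of 4.31%, with 2.76% of genes called higher and 1.55% lower.

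**Figure D2:**
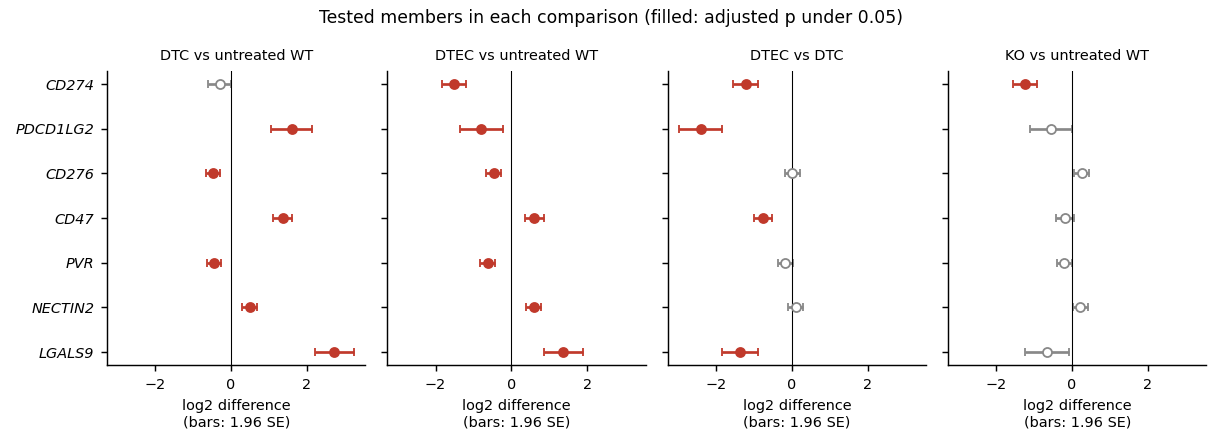
Log2 difference of the 7 members that were tested in every comparison, with bars of 1.96 SE and filled points for an adjusted p under 0.05. In DTEC against DTC the 4 called members lie below 0, and in KO CD274 stands out at -1.23.

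Per kilobase of exon, the order of the ligands shifted with the drug. In untreated WT PVR led at 93.0 CPM per kb, followed by NECTIN2 (24.4), CD276 (22.4), CD47 (15.9), CD274 (2.64), PDCD1LG2 (2.14), VTCN1 (0.169) and LGALS9 (0.135). The ranges of NECTIN2 and CD276, of CD274 and PDCD1LG2, and of VTCN1 and LGALS9 overlapped. In DTC, PVR (67.9) was followed by CD47 (40.7), NECTIN2 (34.2) and then VTCN1 (23.5), which passed CD276 (16.1), PDCD1LG2 (6.48) and CD274 (2.14). In DTEC, VTCN1 (16.4) could not be ordered against CD47 (24.0) or CD276 (16.2), whose ranges overlapped its own. In KO the order was that of untreated WT except that PDCD1LG2 (1.46) and CD274 (1.12) changed places with overlapping ranges, and VTCN1 (0.577) was clear of LGALS9 (0.0851).

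Related genes were followed in 8 lists with 93 genes, of which 66 were tested, and none of the lists contains a member. In DTC 40 of the 66 were called higher and 12 lower, against 34.0% and 33.3% of all genes, and 14 were not called. Their median log2 difference was 0.81 against 0.06 over all genes tested. These 40 include CD40, TNFRSF14, PTGS2, RAET1L and ILDR2, which passed the count filter only or mainly through libraries where they are high. Their calls add nothing to the 40, and their values also enter the median. With total counts alone 47 were higher and 10 lower. Among relatives of B7 and the butyrophilins, which are surface proteins that modulate T cells, 7 of 9 were higher and 2 lower. BTN3A3 rose from 2.37 to 22.2 CPM (3.22), ILDR2 from 0.262 to 2.14 (3.00) and BTN2A2 from 3.20 to 19.0 (2.57). Among relatives of the nectins, 3 of 5 were higher and 1 lower. CEACAM1, an adhesion molecule that binds TIM-3, rose by 3.00 and NECTIN4 by 1.48, while NECTIN1 fell from 150 to 32.3 CPM (-2.22). Of 10 tested galectins and other ligands of inhibitory receptors, 5 were higher and 2 lower. The 5 include TNFRSF14, with 48, 76 and 54 counts in DTC against 0, 3 and 0 in untreated WT. It passed the count filter only through the drug-treated groups, where it is high, so its call adds nothing to that count. CD24, a ligand of the macrophage receptor Siglec-10, rose from 87.0 to 1033 CPM (3.57), and HMGB1 fell from 473 to 179 CPM (-1.40).

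All 5 tested costimulatory TNF family genes were higher in DTC, among them the OX40 ligand TNFSF4 (4.12), TNFSF14 (2.53) and TNFSF15 (1.72). The 5 include CD40, which had 19, 25 and 15 counts in DTC and at most 2 in any other library. It passed the count filter only through DTC, the group where it is high, so its call adds nothing to that count. The ligands TNFSF4, TNFSF14 and TNFSF15 act on T cells as activators rather than as brakes. Of 8 ligands of NKG2D, a receptor by which NK cells recognise stressed cells, 6 were higher and 2 lower, with ULBP1 rising by 3.99, RAET1L by 3.68 and RAET1G by 2.57. The 16 regulators of PD-L1 and CD47 split into 8 higher, 1 lower and 7 not called. STAT2 rose from 13.0 to 91.1 CPM (2.81), the interferon gamma receptor gene IFNGR1 from 55.3 to 284 (2.36), IRF1 from 15.0 to 37.9 (1.33) and QPCT by 3.99. QPCTL, a separate gene of that list, rose by only 0.50 (adjusted p 0.00395). JAK2 differed by 0.27 (adjusted p 0.121) and CMTM6, which keeps PD-L1 at the cell surface, by 0.15 (adjusted p 0.206). Both were called higher with total counts alone (0.63 and 0.50) and with upper-quartile factors (0.56 and 0.44). JAK2 was also called without DTC replicate 2 (0.0448), and over the alternatives the adjusted p covered 0.00197 to 0.350 for JAK2 and 0.000421 to 0.443 for CMTM6. Of 8 suppressive enzymes and cytokines 5 were higher and 2 lower, with PTGS2 from 0.122 to 4.52 CPM (5.16), ARG2 rising by 1.74 and TGFB2 by 1.61. PTGS2, RAET1L and ILDR2 had few reads outside DTC, such as 5, 3 and 4 counts of PTGS2 in untreated WT. They too passed the count filter mainly on their DTC libraries. Only 5 of 18 receptors of the ligands passed the count filter, of which 1 was higher and 2 lower. Besides SIRPA these were few in reads, such as SIRPG, which fell from 1.77 to 0.751 CPM (-1.25).

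In DTEC 25 of the 66 genes were higher and 13 lower than in untreated WT, against 26.0% and 26.3% of all genes, with a median of 0.32 against 0.02. Of the B7 and butyrophilin relatives 5 of 9 were higher and 0 lower, among them BTN3A3 (1.92), BTN3A1 (1.76) and BTN3A2 (1.22). The NKG2D ligands no longer leaned upward, with 3 higher and 4 lower. ULBP1 was at 13.9 CPM against 0.626 in untreated WT (4.45), while ULBP3 fell by 0.95 and MICA by 0.93 on the log2 scale. Of the TNF family genes 1 was higher and 1 lower. The lower one, TNFSF9 (-0.65, adjusted p 0.0102), was not called without DTEC replicate 2 (-0.46, adjusted p 0.0567). The nectin relatives gave 2 higher, CEACAM1 (3.44) and NECTIN4 (1.35), and 1 lower, NECTIN1 (-1.07). Among the galectin list 3 were higher and 2 lower, with LGALS8 at 1.17, HMGB1 at -1.06 and THBS1, another ligand of CD47, at -1.04. The 3 include TNFRSF14, which passed the count filter only through the drug-treated groups. Its call adds nothing to that count or to the 25 above.

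The regulators of PD-L1 and CD47 had 9 of 16 higher and 4 lower in DTEC, against 26.0% and 26.3% of all genes. STAT2 (1.65), QPCT (1.48), IFNGR2 (0.91), CMTM6 (0.64, adjusted p 0.0001) and IRF1 (0.41, adjusted p 0.00597) were higher, and JAK2 was lower (-0.64, adjusted p 0.00305). QPCTL, at 0.18, was not called (adjusted p 0.269). Of the enzymes and cytokines 2 were higher, ARG2 (1.85) among them, and 0 lower, and of the receptors only SIRPA was called.

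**Figure D3:**
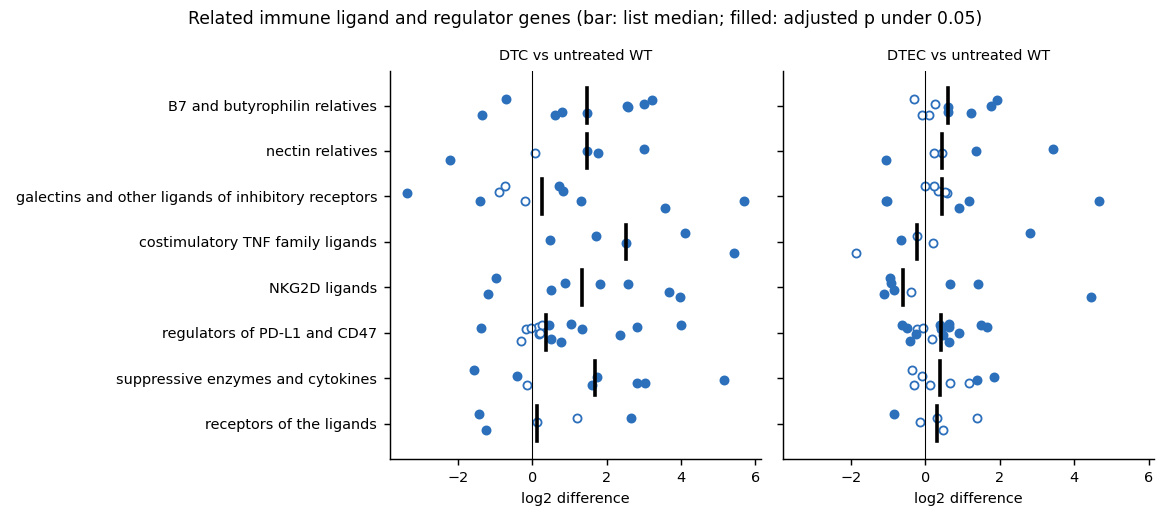
Log2 difference of each tested gene in the 8 related lists for DTC and DTEC against untreated WT, with 1 point per gene, filled at an adjusted p under 0.05, and a bar at the list median. The TNF family and NKG2D ligand medians lie above 0 in DTC (2.53 and 1.35) and below 0 in DTEC (-0.22 and -0.61). The TNF family points include CD40, which had almost no reads outside DTC. The galectin list points include TNFRSF14, which had few reads in untreated cells.

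Between DTC and DTEC, 14 of the 66 were higher in DTEC and 30 lower, against 28.8% and 26.6% of all genes, and 11 and 38 with total counts alone. The median was -0.44 against -0.01. These 30 include CD40, PTGS2, RAET1L and ILDR2, which passed the count filter only or mainly on their DTC libraries. Their calls add nothing to the 30. All 5 TNF family genes were lower in DTEC, with TNFSF14 at -2.32, TNFSF15 at -1.94 and TNFSF4 at -1.31. CD40, among these 5, was tested only through its DTC reads and had 0 counts in every DTEC library. Also lower were 5 of 8 NKG2D ligands and none was higher, with RAET1L at -4.06, MICA at -1.81 and MICB at -1.33. Of the B7 and butyrophilin relatives 5 of 9 were lower, including ILDR2 (-2.74) and BTN2A2 (-1.95), and 1 was higher, the ICOS ligand gene ICOSLG (1.45, from 9.19 to 25.1 CPM). In untreated WT ICOSLG was at 23.4 CPM. CD24 (-2.66) and THBS1 (-2.35) were lower while LGALS9B was higher (3.95). Among the regulators 7 were lower and 3 higher. QPCT (-2.51), IFNGR1 (-1.89), STAT2 (-1.16), IRF1 (-0.92) and JAK2 (-0.91) were lower, and CMTM6 was higher (0.49, adjusted p 0.00082, and 0.31 with total counts alone). PTGS2 (-3.77) and TGFB2 (-1.50) fell, while NT5E, which makes adenosine, rose (1.22). NT5E was at 72.6 CPM in DTC and 169 in DTEC, both below its 216 in untreated WT. NECTIN1 (1.15), SIRPG (1.72) and SIRPA (0.60) were higher in DTEC than in DTC.

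In KO 4 of the 66 were higher and 2 lower, against 2.76% and 1.55% of all genes, with a median of 0.13 against -0.01. With total counts alone the split was 7 and 1. TNFSF15 fell from 4.39 to 1.19 CPM (-1.88, SE 0.282, adjusted p 0.00176) and CD24 rose from 87.0 to 124 CPM (0.52, SE 0.10, adjusted p 0.00944). Those 2 calls held in every alternative run. VSIR, which encodes the checkpoint protein VISTA, was higher (0.47, adjusted p 0.0159), as were NECTIN4 (0.57, 0.0166) and CEACAM1 (1.28, 0.0248), and NT5E was lower (-0.61, 0.0455). VSIR was not called without untreated WT replicate 1 (0.0873) or 3 (0.0775) or KO replicate 2 (0.0942) or 3 (0.0703), and NECTIN4 was not called without the same libraries (0.0600, 0.0818, 0.0888 and 0.0772). CEACAM1 was not called with limma voom (0.140), without untreated WT replicate 1 (0.0805), 2 (0.0932) or 3 (0.0727), or without KO replicate 2 (0.133). NT5E was not called without any 1 of the 6 compared libraries (0.118 to 0.192), with total counts alone (0.0704), with RLE factors (0.0552) or with a mean of at least 10 counts (0.0576). With edgeR 0 of the 16 regulators were called in KO, while DESeq2 called 1 and limma voom 0. The NKG2D ligands had 0 of 8 called by edgeR, DESeq2 or voom, and the receptors had 0 of 5. Of all genes 4.31% were called by edgeR in KO, so a count of 0 in lists of this size says little about them. Among the regulators followed in every comparison, IRF1 was at 0.40 (adjusted p 0.0612, with 0.00712 to 0.232 over the alternatives), beside JAK2 at -0.16 (0.659) and CMTM6 at 0.10 (0.687).

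The genes whose pattern was most like that of VTCN1 were sought by Pearson correlation of log2 CPM over the 12 libraries among 11640 genes. The 6 highest were NHLRC3 (r 0.996), SLC2A12 (0.995), YPEL2 (0.994), STK38 (0.992), STEAP4 (0.992) and SYTL2 (0.991). These points share libraries and fall into treated and untreated clusters, so r is a description of that split. The sizes differed, since SLC2A12, a glucose transporter gene, stood at 1.65 CPM without drug, 16.8 in DTC and 13.7 in DTEC, with 2.91 in KO, whereas NHLRC3 went only from 8.56 to 16.8, 16.2 and 10.1. STEAP4, which encodes a metalloreductase, was at 2.54 CPM in untreated WT and 4.42 in KO, and at 30.4 and 31.9 in DTC and DTEC. Of the other members NECTIN2 (0.877, rank 951), CD47 (0.865, rank 1062) and LGALS9 (0.851, rank 1174) were most like VTCN1, PDCD1LG2 (0.359) and CD274 (-0.30) were unlike it, and CD276 (-0.86) and PVR (-0.87) ran opposite to it.

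**Figure D4:**
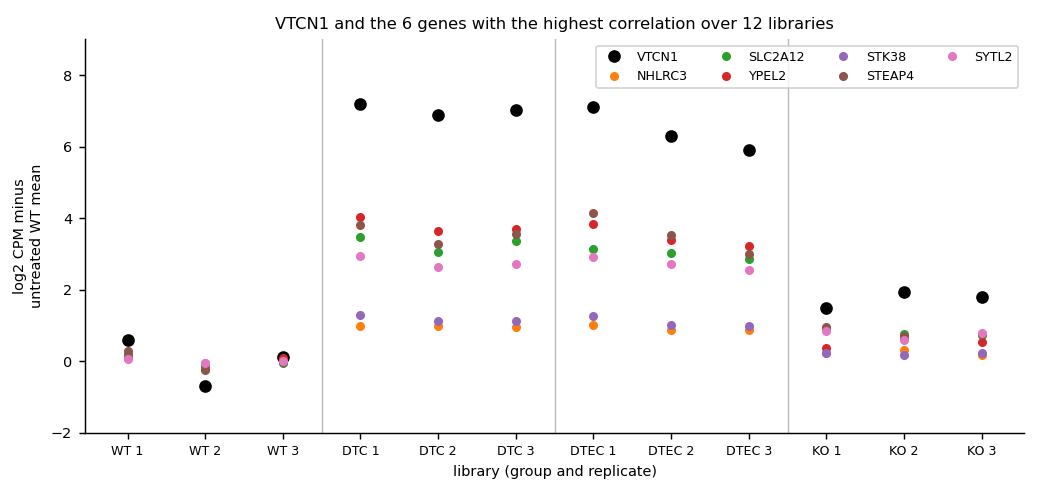
Log2 CPM minus the untreated WT mean for VTCN1 and the 6 genes most correlated with it, with 1 point per gene in each of the 12 libraries. All 7 genes are higher in the DTC and DTEC libraries, and VTCN1 lies above the others in each of them.

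Genes next to VTCN1 and to the pair of PD-1 ligand genes did not all follow them. TRIM45, beside VTCN1 at chr1:117111060-117122587, rose from 2.55 CPM in untreated WT to 8.24 in DTC (1.69, adjusted p 2.71e-07) and 7.39 in DTEC (1.54, adjusted p 1.97e-06). In KO it was at 3.67 CPM (0.53, adjusted p 0.0788), and was called with total counts alone (0.0393) and with DESeq2 (0.0461). MAN1A2, the gene on the other side, averaged 118 CPM in untreated WT and 122 in DTEC, with 81.7 ± 24.1 in DTC (SD, n = 3). Its DTC difference of -0.53 (adjusted p 0.0129) was not called with total counts alone (-0.18, 0.367) or upper-quartile factors (-0.25, 0.188), or without untreated WT replicate 3 (0.0563), DTC replicate 2 (-0.31, 0.101) or DTC replicate 3 (0.0805). PLGRKT, on the CD274 side of the pair, averaged 18.6 CPM in untreated WT, 11.1 in DTEC and 15.0 in KO, with 11.4, 28.7 and 24.2 in the 3 DTC libraries. It was lower in DTEC (-0.74, adjusted p 0.0191), though not with total counts alone (-0.57, 0.0603) or upper-quartile factors (-0.63, 0.0512), or without DTEC replicate 1 (0.0567) or 3 (0.0503), and its DTC difference was 0.20 (adjusted p 0.456), or 0.54 without DTC replicate 1 (0.000433). RIC1, on the PDCD1LG2 side, was higher in DTEC (0.36, adjusted p 0.041), a call lost without any 1 of 5 of the 6 compared libraries (0.0782 to 0.136, DTEC replicate 3 being the exception).

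**Figure D5:**
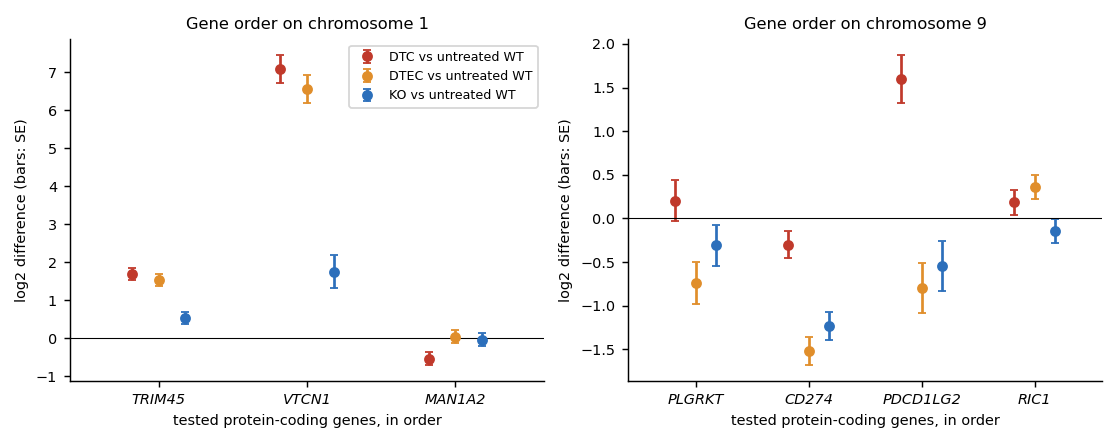
Log2 differences with standard errors for VTCN1, CD274, PDCD1LG2 and the nearest tested protein-coding genes on either side, in DTC, DTEC and KO, each against untreated WT. VTCN1 is plotted as a description, and its differences of 7.08 and 6.57 exceed the 1.69 and 1.54 of TRIM45.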

How the data were processed

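RNA from 12 PC9 cultures was sequenced as 101 bp pairs from stranded polyA libraries, all in batch 1, per the labels. The deposited values are expected counts per gene, which the authors estimated from reads without scaling to depth. Per the submitters' processing notes the tools were RSEM 1.3.1, Bowtie2 2.5.2 and DESeq2 1.40.2 and the build was GRCh38. The annotation release is not given in the sources used here, so coordinates are those of GENCODE 29 for the same identifiers. Expected counts were rounded and tested with edgeR 4.0.16 (R 4.3.3), using filterByExpr, TMM scaling and robust quasi-likelihood F tests with 1 mean per group over all 12 libraries. P-values were adjusted over 17115 genes by the Benjamini-Hochberg method and called under 0.05. SE denotes the standard error of a log2 difference. The fits were tested on simulated data.

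The members and lists were chosen with earlier results of these data known. From each list and comparison, up to 3 called genes with the largest change and a mean of at least 1 CPM are named, and IRF1, CMTM6 and JAK2 always. CD40, TNFRSF14 and QPCTL are given outside that rule. A further gene of that rule is not reported here. The 6 genes most correlated with VTCN1 had a group mean of at least 5 CPM (prior count 2). Alternatives were total counts alone, RLE and upper-quartile factors, DESeq2 1.42.0, limma 3.58.1 voom, no count filter, a mean of at least 10 counts, a replicate block, only the compared libraries, and leaving out each library. Floors cover counting error only, and intervals are 1.96 SE of the fit.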

Additional observations from a re-analysis of the deposited data

Results flagged for a closer look

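Under erlotinib the difference between 28 and 7 days was itself tested, and 4 of 7 tested ligand genes passed, all lower in DTEC than in DTC, where 55.4% of all genes were called and 26.6% were lower. The log2 difference was -1.22 for CD274, -2.40 for PDCD1LG2, -0.76 for CD47 and -1.36 for LGALS9. For CD47 and LGALS9 both times were above untreated WT, and for CD274 both means were below it. For PDCD1LG2 the 7-day level was above it and the 28-day mean below, a 28-day call that was lost in 6 of 15 alternatives.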

How the results depend on the processing

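Each value was recomputed under 15 alternatives, 9 settings and 6 left-out libraries. Of 32 results on members, 21 kept direction and side of the threshold throughout, and of 104 on other named genes, 82 did. Those 32 include the differences of VTCN1, which are given as a description. Counts of calls moved by more than 1.5 times only in KO, while the member counts other than VTCN1 were 4 to 6 in DTC, 4 to 5 in DTEC against DTC, and between 6 and 7 in DTEC against untreated WT. In KO, with VTCN1 included, the member count of 2 was 1 with limma voom, 5 with only the compared libraries and 1 without any single library. The VTCN1 difference in KO is given without a test, so its entering or leaving that count carries no weight. Other than VTCN1 the member called in KO was CD274, which was called in every alternative. With only the compared libraries CD276, PVR and NECTIN2 were called as well. The list count of 6 was 11 with no count filter, 19 with only the compared libraries and 2 to 5 without single libraries. The count of all genes, 738, was 1154 with DESeq2, 1147 with no count filter, 2656 with only the compared libraries and 321 to 426 without single libraries. Signs reversed only for differences that were not called. With total counts alone these were CD274 in DTC (0.054), CD276 (-0.17), NECTIN2 (-0.088) and RIC1 (-0.0086) in DTEC against DTC, and MAN1A2 in KO (0.035). CD276 in DTEC against DTC was also -0.013 with RLE factors, -0.16 with upper-quartile factors, -0.012 with DESeq2, -0.031 with a mean of at least 10 counts and -0.0081 with only the compared libraries, and NECTIN2 was -0.074 with upper-quartile factors. Without single libraries CD276 in DTEC against DTC ran from -0.12 to 0.058, NECTIN2 there from -0.011 to 0.15, PLGRKT in DTC from -0.0046 to 0.54, TDP1 in DTEC from -0.00997 to 0.085, MAN1A2 in DTEC from -0.033 to 0.16 and MAN1A2 in KO from -0.053 to 0.030. The causes were not tested.

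Deviations of same-numbered replicates had low but mostly positive correlations (from -0.013 to 0.179). The labels do not say that the numbers pair the samples, so a replicate block was run as an alternative only. With a replicate block, members called other than VTCN1 were 6 in DTC, 7 in DTEC and 4 in DTEC against DTC. In KO it was CD274 alone. List genes called were 53, 38, 47 and 7 in that order, and all genes called were 11775, 9255, 9732 and 887. Of 136 gene results 135 kept their side of the threshold. Depth limited HHLA2, which could not be tested, and left VTCN1 in untreated WT at 8 to 25 counts.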
